A study of Mus musculus with 44 samples.

Results

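The genes described here are 9 mRNAs that earlier literature named as targets of the microRNA miR-1: Twf1, Twf2, Cnn3, Tagln2, Hdac4, G6pdx, Pgd, Cap1 and Ywhaq. The rule lists them by name and uses no measured value, and they were found by matching the RefSeq identifiers of the deposited rows to gene symbols. They are 9 of 17004 genes that could be placed on the mouse genome. The question asked of them was whether they were lower in cortical neurons made to express miR-1 than in neurons that received only the green fluorescent protein (GFP) virus, with a miR-155 virus as the control for specificity.

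miR-1 is made by cardiac and skeletal muscle and is not a neuronal microRNA. miR-155 is made by activated immune cells. A microRNA guides an Argonaute protein to mRNAs that pair with its seed (bases 2 to 8), usually in the 3′ UTR, and the bound mRNA is deadenylated, decapped and degraded or is translated less. A match to the whole seed followed by an A is called an 8mer, a match to the whole seed alone a 7mer-m8, a shorter match followed by an A a 7mer-A1, and the shorter match alone a 6mer.

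All samples were from wild-type mouse brain or from primary cortical cultures of newborn mouse pups, which were treated with a drug against dividing cells. The GFP, miR-1 and miR-155 cultures were transduced in the first week with a lentivirus in which a synapsin promoter, active mainly in neurons, drove GFP alone or GFP with the miR-1 or the miR-155 precursor in its 3′ UTR, and were collected at 14 days in vitro (DIV14). Each of these cultures gave 1 RNA-seq and 1 TAIL-seq library, the latter sequencing the ends of mRNAs and measuring their poly(A) tails. The other DIV14 cultures (unstimulated, BDNF, and glutamate with glycine, written glu/gly), DIV10 cultures (unstimulated, and KCl for 10 min or 30 min), adult and embryonic hippocampus, adult cortex and the visual cortex of 8 dark-housed young adult male mice, 4 of them given 1 h of light, served as context. The visual cortex and the hippocampus were measured by PAL-seq v2, another method of counting mRNA ends and sizing their tails. The labels place the virus cultures and the stimulated cultures in separate experiments, so virus and experiment cannot be told apart between them. Apart from the visual cortex there was 1 sample of each kind, so no test between conditions was possible and no p-value is given for the cultures or tissues. Intervals are exact 95% binomial (Clopper-Pearson) intervals of read counts; they cover counting error only, not the spread between cultures, and PCR copies are not separate molecules.

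The sites are shown first, since they tell which of the genes could pair with miR-1 and which with miR-155. The motifs searched on the mRNA strand of each listed transcript were, as 8mers, ACATTCCA for miR-1 and AGCATTAA for miR-155. The 7mer-m8 is the 8mer without its last letter, the 7mer-A1 the 8mer without its first, and the 6mer the 8mer without either, so each site was counted once, as its longest kind. Of 16888 transcripts with an annotated 3′ UTR, 2705 (16%) held an 8mer or 7mer for miR-1 there and 11.9% for miR-155. Of the 9 genes, 7 held an 8mer or 7mer for miR-1: Twf1, Cnn3, Tagln2, Hdac4, G6pdx, Cap1 and Ywhaq. Twf2 held no match anywhere in its transcript, and Pgd held 3 6mers in its coding sequence and none in its 3′ UTR. Hdac4 alone also held a 7mer for miR-155 in its 3′ UTR. The miR-155 that the control virus carried is, with its seed in capitals (RefSeq, GRCm38.p6, chr16:84714143-84714165, plus strand):
mmu-miR-155-5p: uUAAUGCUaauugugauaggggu
The best miR-1 site of each of the 7 genes follows, read from the 3′ UTR of the RefSeq transcript on GRCm38.p6 in the direction of the mRNA, with the matched letters in capitals. All lie in annotated 3′ UTRs.
Twf1 8mer, chr15:94578170-94578177, minus strand, bases 1643 to 1650 of an 1872-base 3′ UTR: tcgaagtcaatgcACATTCCAgaat
Cnn3 7mer-m8, chr3:121457558-121457564, plus strand, bases 132 to 138 of 779: gtatgccttatgtACATTCCtttc
Tagln2 7mer-m8, chr1:172506777-172506783, plus strand, bases 69 to 75 of 667: tatgttttagcagACATTCCctga
Hdac4 7mer-m8, chr1:91930060-91930066, minus strand, bases 3281 to 3287 of 4568: ttctttcctcagaACATTCCttct
G6pdx 7mer-m8, chrX:74409991-74409997, minus strand, bases 210 to 216 of 724: agtaaacccagctACATTCCtcaa
Ywhaq 7mer-m8, chr12:21390947-21390953, minus strand, bases 403 to 409 of 1027: cgtcttgatttctACATTCCtttt
Cap1 7mer-A1, chr4:122859641-122859647, minus strand, bases 487 to 493 of 1086: gattgccacccagCATTCCAagca
Several genes held more than 1 site. Twf1 had a 7mer-A1 at bases 71 to 77, G6pdx a second 7mer-m8 at bases 527 to 533, Hdac4 a 7mer-A1 at bases 3314 to 3320, and Cap1 2 further 7mer-A1 sites and a 6mer. The Hdac4 match to miR-155, shown because it makes this gene a possible target of the control too, is at chr1:91930551-91930557 on the minus strand:
Hdac4 miR-155 7mer-m8: cctgtgagctgaaAGCATTAccta

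The depth set how firmly each gene could be read. The GFP, miR-1 and miR-155 libraries held 448022, 968675 and 2111244 RNA-seq reads on listed genes and 389654, 446538 and 480037 TAIL-seq tags. Only Cnn3 and Cap1 reached 10 RPM with GFP in the authors' values (RPM, reads scaled to a total of 1000000), the expression minimum of the study; Twf2 stood at 9.83 RPM. Levels are given in CPM, the reads or tags of a gene scaled to 1000000 on listed genes, so that a CPM is larger than an RPM of the same gene. On the authors' RPM, which divide by a larger total, every RNA-seq difference between miR-1 and GFP is higher by the same amount, the median of all genes moving from −0.03 to 0.24 on the log2 scale. Neuronal markers (Snap25, Syt1, Rbfox3, Tubb3 and Map2) summed to 3340, 3510 and 3470 CPM with GFP, miR-1 and miR-155, and 6 astrocyte markers to 1630, 1450 and 1130. The 6 microglial markers summed to 1.42 to 4.46 CPM in these 3 cultures, with Cx3cr1 at 0 in each. The 5 markers of endothelial and mural cells summed to 14.5 to 23.2 CPM, with Cldn5 at 0 in each, and the 5 of the oligodendrocyte lineage to 12.4 to 26.8 CPM, with Mog at 0 in each. The astrocyte sums showed that the cultures were not neurons only. In bulk samples, fewer cells of a type and less RNA per cell cannot be told apart.

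Twf1 was the gene with the lowest miR-1 value. Twinfilin-1, its product, binds actin monomers and caps filament ends. By RNA-seq Twf1 (NM_008971, chr15:94577948-94589824, minus strand, 9 exons) stood at 24.6 CPM with GFP, 28.9 with miR-155 and 5.16 with miR-1, from 11, 61 and 5 reads. The miR-1 level was 21.0% of GFP (interval 5.73 to 65.6%), a log2 difference of −2.25 (−4.13 to −0.61), and −1.97 (−3.85 to −0.33) on the authors' RPM, whereas the miR-155 level was 118% of GFP (61.4 to 248%). TAIL-seq, a separate library of the same cultures, gave 56.5, 41.7 and 15.7 CPM for GFP, miR-155 and miR-1, so that miR-1 was at 27.8% of GFP (10.0 to 67.3%) from 7 against 22 tags. In both assays the miR-1 culture was the lowest of the 6 DIV14 cultures, whose other 5 lay between 21.6 and 35.5 by RNA-seq and between 41.7 and 66.2 by TAIL-seq. Against GFP and miR-155 summed, the log2 RNA-seq difference was −2.45 (−4.11 to −1.16); with 0.5 reads added, 5 of 8534 genes lay lower than Twf1, or 0.0586%. The coding sequence of Twf1 shares 53.0% of its 30-base windows with another place in the genome, so that reads from there may be lost or shared.

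Twf2, which encodes twinfilin-2, the paralog of twinfilin-1 with no miR-1 match in its transcript, did not share the direction of Twf1. Twf2 (NM_011876, chr9:106203108-106215387, plus strand, 9 exons) stood at 53.6, 80.5 and 82.9 CPM with GFP, miR-1 and miR-155, from 24, 78 and 175 reads. The miR-1 culture was at 150% of GFP (94.1 to 248%) and the miR-155 culture at 155% (101 to 248%), and the miR-1 culture was at 97.1% of miR-155 (73.4 to 128%). On the authors' RPM the log2 difference from GFP was 0.87 with miR-1 (0.19 to 1.59), an interval above 0. The tags placed it at 25.7, 67.2 and 31.2 CPM with GFP, miR-1 and miR-155, a level with miR-1 of 262% of GFP (125 to 600%). By tags the miR-1 culture was the highest of the 6 DIV14 cultures, the others lying between 25.5 and 33.8. By RNA-seq its place depended on the scale. In CPM the miR-1 culture lay inside the range of the others, below miR-155. On the authors' RPM it was the highest, at 17.9, the others lying between 9.83 and 15.3. Only in CPM did the assays differ on whether Twf2 was higher with miR-1 than in every other culture.

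Cnn3 and Cap1 were the genes with the narrowest RNA-seq intervals against GFP. Cnn3 encodes calponin-3, an actin-binding protein also made by astrocytes, and Cap1 encodes cyclase-associated protein 1, which recharges actin monomers and helps to take filaments apart. Cnn3 (NM_028044, chr3:121426541-121458205, plus strand, 7 exons) stood at 87, 80 and 49.6 CPM with GFP, miR-155 and miR-1. Its miR-1 level was 56.9% of GFP (36.5 to 89.2%), against 92.0% with miR-155 (64.6 to 134%). On the authors' RPM the log2 difference with miR-1 was −0.53 (−1.17 to 0.11), an interval that includes 0. The tags gave 408, 333 and 242 CPM, and thus 59.3% of GFP with miR-1 (46.0 to 76.2%) and 81.7% with miR-155 (65.2 to 102%). Both assays placed miR-1 lowest of the 6 DIV14 cultures for Cnn3. The cultures without miR-1 were themselves far apart: GFP was at 42.6% of the unstimulated culture by RNA-seq (28.7 to 62.1%) and at 73.1% by TAIL-seq (61.0 to 87.3%), and the summed astrocyte markers were at 1630 CPM with GFP and 2110 without stimulation. The part of that difference in the Cnn3 values was not tested. In the coding sequence of Cnn3, 58.0% of 30-base windows occur elsewhere in the genome.

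Cap1 (NM_001301067, chr4:122859048-122886076, minus strand, 13 exons) stood at 366 CPM with GFP, 422 with miR-155 and 305 with miR-1, from 164, 892 and 295 reads. The miR-1 level was 83.2% of GFP (68.5 to 101%), an interval that reached past 100%, and 72.1% of miR-155 (63.0 to 82.3%), one that did not; on the authors' RPM the level with miR-1 was not below GFP (49.3 against 48.8 RPKM, which is RPM per kilobase of counted sequence). By tags the levels were 213, 258 and 157 CPM, with miR-1 at 73.6% of GFP (52.8 to 102%) and 60.7% of miR-155 (44.6 to 82.0%). Against GFP and miR-155 summed, the miR-1 culture was at 73.8% by RNA-seq (64.6 to 84.1%) and 65.9% by TAIL-seq (49.5 to 86.8%).

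Tagln2 encodes transgelin-2, an actin cross-linking protein of the calponin family. Its counts (NM_178598, chr1:172500246-172507375, plus strand, 5 exons) were too low to separate the GFP, miR-1 and miR-155 cultures from each other. It had 8, 8 and 14 RNA-seq reads with GFP, miR-1 and miR-155, which are 17.9, 8.26 and 6.63 CPM, and 13, 7 and 8 tags. The miR-1 level was 46.3% of GFP by RNA-seq (15.1 to 141%) and 47.0% by tags (15.9 to 127%), while the miR-155 level was 37.1% (14.5 to 102%) and 50% (17.9 to 130%). Tagln2 was therefore as low with miR-155 as with miR-1, although its 3′ UTR holds no miR-155 match; the only miR-155 match in its transcript was a 7mer-A1 in the coding sequence.

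Hdac4 encodes a class IIa histone deacetylase that holds back MEF2 target genes and moves out of the nucleus on neuronal activity. Hdac4 (NM_207225, chr1:91928779-92180341, minus strand, 27 exons) stood at 40.2 CPM with GFP, 44.0 with miR-155 and 36.1 with miR-1, from 18, 93 and 35 reads. The miR-1 level was 89.9% of GFP (49.6 to 169%), so a difference was not detectable at this depth. It was the lowest of the 6 DIV14 cultures, but the next, GFP, was within the interval, and on the authors' RPM the order of these 2 turned (2.53 RPKM with miR-1 and 2.32 with GFP). No TAIL-seq tag was assigned to Hdac4 in these 3 cultures. It had at most 1 tag in any tag library, and 0 among 4812273 tags in 1 dark mouse. With GFP, Pgd at 3.21 RPKM had 22 tags. The absence of Hdac4 tags was therefore not read as a level, and its cause was not tested.

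G6pdx and Pgd encode the dehydrogenases that make NADPH in the oxidative branch of the pentose phosphate pathway, glucose-6-phosphate dehydrogenase and 6-phosphogluconate dehydrogenase. G6pdx, which holds 2 7mer-m8 sites, was lower with miR-1 by RNA-seq on CPM. It (NM_008062, chrX:74409483-74428880, minus strand, 13 exons) stood at 35.7, 23.2 and 15.5 CPM with GFP, miR-155 and miR-1, from 16, 49 and 15 reads. The miR-1 level was 43.4% of GFP (20 to 93.6%) and 66.7% of miR-155 (34.8 to 121%), and miR-155 was at 65% of GFP (36.3 to 122%). On the authors' RPM the log2 difference with miR-1 was −0.93 (−2.05 to 0.18), which includes 0. Its tags numbered 3, 7 and 1, so TAIL-seq could not place it, although 1 tag made miR-1 the lowest of the 6 cultures, the others having 7.7 to 23.8 CPM. Pgd (NM_001081274, chr4:149149991-149166705, minus strand, 13 exons), without a 3′ UTR site, stood at 24.6, 13.7 and 20.6 CPM with GFP, miR-155 and miR-1. Its miR-1 level was 84.1% of GFP by RNA-seq (38.4 to 194%) and 107% by tags (58.7 to 197%), with no agreement in direction, and it was inside the range of the other DIV14 cultures in both assays.

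Ywhaq encodes 14-3-3 theta, an adaptor that binds phosphorylated proteins. It could be read by tags only: Ywhaq (NM_011739, chr12:21390329-21417436, minus strand, 5 exons) had 1, 0 and 1 RNA-seq reads with GFP, miR-1 and miR-155, and 99.7% of the 30-base windows of its coding sequence occur elsewhere in the genome. The tags placed it at 542 CPM with GFP, 535 with miR-155 and 387 with miR-1, from 211, 257 and 173 tags. The miR-1 level was 71.5% of GFP (58.2 to 87.9%) and the miR-155 level 98.9% (82.1 to 119%). Of the other cultures, those of the stimulation experiment were between, at 421 to 446 CPM, and GFP was at 121% of the unstimulated one (103 to 143%). The miR-1 culture was at 86.9% of the unstimulated culture (72.5 to 104%), an interval that includes 100%. In the 3′ UTR, where tags are assigned, 75.9% of windows occur elsewhere.

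**Figure D1:**
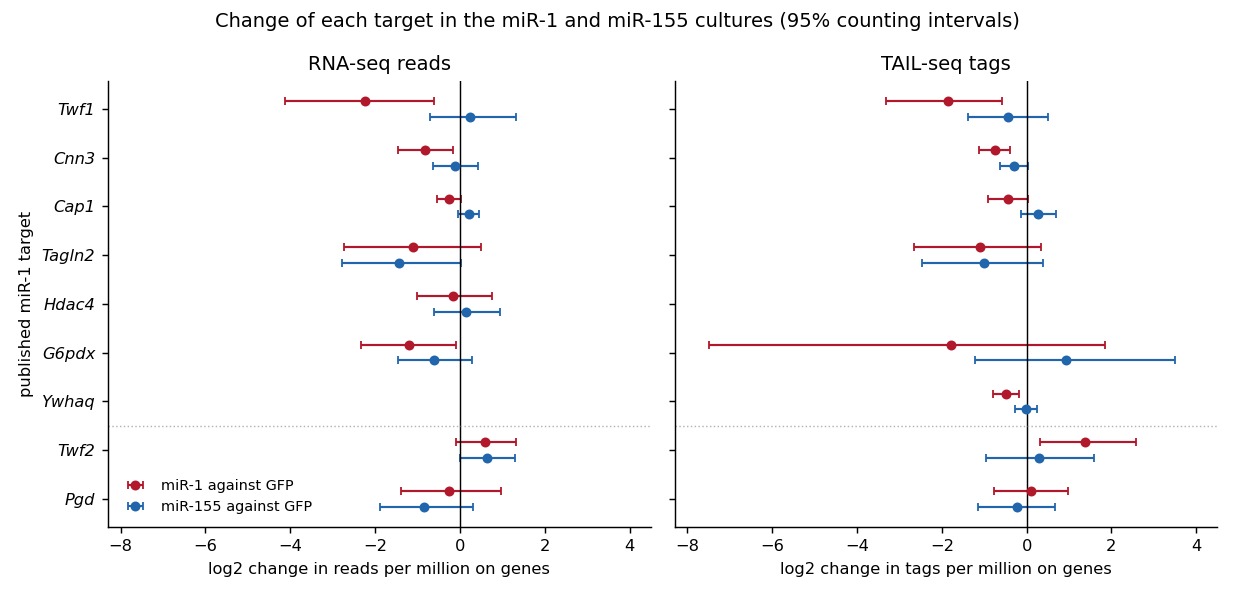
Log2 difference in CPM of RNA-seq reads (left) and TAIL-seq tags (right) of each target in the miR-1 (red) and miR-155 (blue) cultures against GFP, 1 culture each. Points are values and bars 95% counting intervals; genes above the dotted line hold an 8mer or 7mer for miR-1 in the 3′ UTR, and those below, Twf2 and Pgd, do not. Of the red bars, those of Twf1 and Cnn3 lie below 0 in both panels, that of G6pdx in the left one only and that of Ywhaq in the right one; on the authors' RPM the left bars of Cnn3 and G6pdx reach past 0, and that of Twf2 lies above it. In the plot, Ywhaq has too few reads for the left panel and Hdac4 no tags for the right.

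Taken as a list, the genes are described by counts beside the same counts over all genes. At 10 RPM or more with GFP, 1 of 2 genes, Cnn3, was at or below 75% of GFP with miR-1, where 16.4% of 4501 genes were; neither was at or above the mirrored limit (GFP at or below 75% of the culture), where 8.69% were. With miR-155, 0 of 2 were at or below 75% (all genes 13.4%) and 0 at or above the mirrored limit (all genes 7.2%). The median log2 RNA difference of these 2 genes was −0.54 with miR-1 and 0.04 with miR-155, against −0.03 and −0.03 over all 4501 genes. Without the RPM minimum, 4 of 8 genes with reads were at or below 75% with miR-1 (27.7% of 11929 genes), namely Twf1, Cnn3, Tagln2 and G6pdx. With miR-155 it was 4 of 9 (24.5% of 12183 genes): Tagln2, G6pdx, Pgd and Ywhaq, the last on 1 read in each. Tagln2 and G6pdx were thus in both sets, Twf1 and Cnn3 in the miR-1 set, and the count alone was the same in both cultures. Both comparisons share the GFP culture.

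Summing GFP and miR-155 as the reference, a choice made after the data were seen, gave more reads per gene. Among genes with at least 50 reads in all, the RNA-seq interval lay wholly below 100% for 3 of 7 targets, Twf1, Cnn3 and Cap1 (11.2% of 8534 genes), and wholly above for 0 (10.2%). By TAIL-seq it lay below for 3 of 5 targets, Cnn3, Cap1 and Ywhaq (7.24% of 5017 genes), and above for 1, Twf2 (7.83%). Twf1 had 49 tags in all and so fell just short of that minimum. The RNA-seq intervals are on CPM, and the count was not made on the authors' RPM. On CPM the upper log2 limits of Cnn3 and Cap1 were −0.255 and −0.251. Between the 2 scales the median of all genes, miR-1 against GFP, moved from −0.03 to 0.24. Both intervals may therefore reach 100% on the authors' RPM.

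Order among the 6 DIV14 cultures used no cutoff on the size of a difference. Among genes with at least 50 reads over the 6, miR-1 was the lowest culture for 5 of 8 targets by RNA-seq (Twf1, Cnn3, Hdac4, G6pdx and Cap1), where it was lowest for 19.2% of 9523 genes. By TAIL-seq it was lowest for 6 of 8 (Twf1, Cnn3, Tagln2, G6pdx, Cap1 and Ywhaq), against 22.4% of 8289 genes. On the authors' RPM it was lowest for 3 of 8 targets by RNA-seq (Twf1, Cnn3 and G6pdx; 11.3% of all genes). Cap1 and Hdac4 were the genes that dropped out. The RNA-seq and TAIL-seq libraries come from the same cultures, so they are not separate evidence on the spread between cultures.

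**Figure D2:**
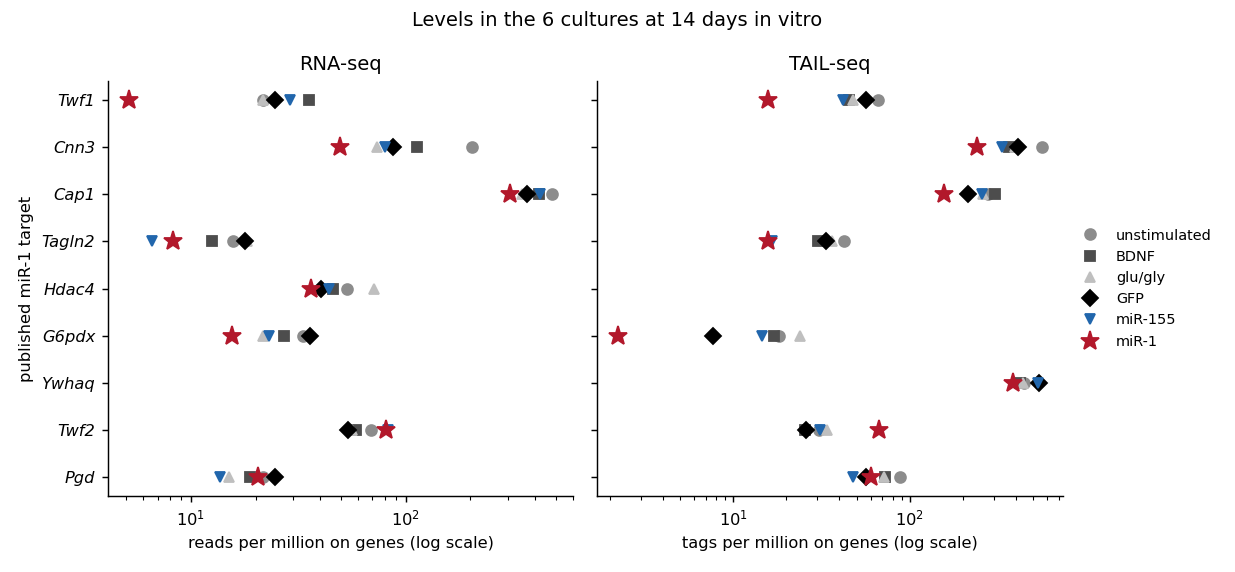
Level of each target in the 6 DIV14 cultures, in CPM on a log axis (left reads, right tags), 1 library per point. The red star (miR-1) is leftmost for 5 of 8 genes by RNA-seq and 6 of 8 by TAIL-seq, and rightmost for Twf2 by TAIL-seq.

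Published targets may have been named partly by their sites, so the sites held by these genes are no separate support. Over all genes, the share at or below 75% of GFP went with the kind of site. In the miR-1 culture it was 34.6% of 217 genes whose 3′ UTR held an 8mer, 27.5% of 331 with a 7mer-m8 at best, 20.9% of 368 with a 7mer-A1 at best and 11.5% of 1898 with no 6-base match in the transcript. In the miR-155 culture the shares for its own sites were 43.3% of 164, 25.2% of 305, 26.6% of 214 and 9.37% of 2786 genes. Median log2 differences with miR-1 over all genes were −0.24 for an 8mer, −0.11 for a 7mer-m8 or 7mer-A1 and 0.01 for no match. Hdac4 (−0.15), Cnn3 (−0.81) and Cap1 (−0.27) lay above the 5th percentiles of their classes, −0.995 for a 7mer-m8 and −0.782 for a 7mer-A1. Tagln2 (−1.11), G6pdx (−1.21) and Twf1 (−2.25) lay below those of theirs, which for an 8mer was −1.204. Of the targets with sites, only Cnn3 and Cap1 reached 10 RPM with GFP, the minimum for these classes. Whether the targets were lower than other genes with such sites was not tested.

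**Figure D3:**
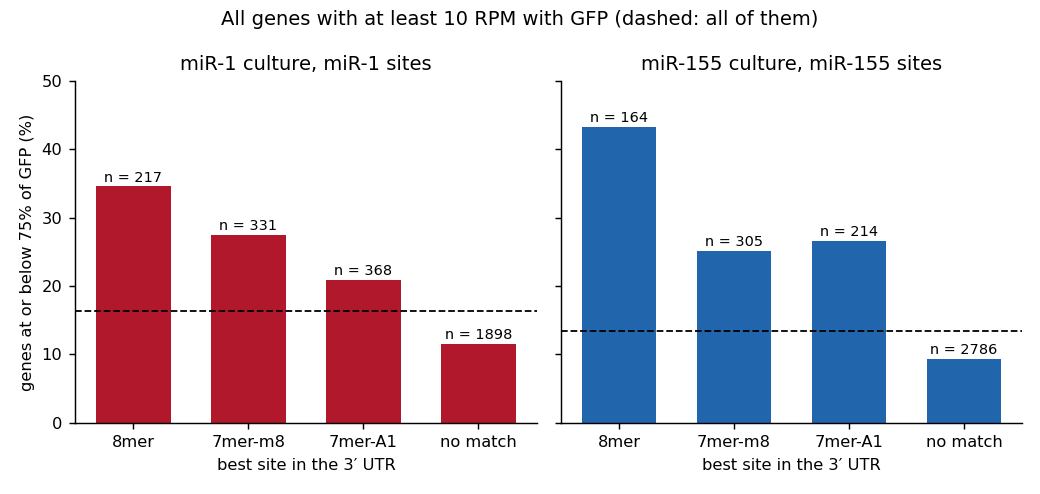
Share of genes with at least 10 RPM with GFP that were at or below 75% of GFP, in percent, grouped by their best 3′ UTR site, for miR-1 sites in the miR-1 culture (left) and miR-155 sites in the miR-155 culture (right). Bars are shares with the number of genes above, genes with a 6mer or a site outside the 3′ UTR at best are left out, and the dashed lines mark all genes (16.4% and 13.4%).

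Poly(A) tails could be compared for 3 targets with at least 50 tags in both cultures, and none had shorter tails with miR-1 by more than the spread over genes. The mean tail of Cnn3 was 102 nt with GFP, 100 nt with miR-1 and 96.1 nt with miR-155. The tail of Cap1 was 110, 122 and 105 nt, and that of Ywhaq 99.4, 108 and 96.2 nt, in the same order. Against GFP the differences with miR-1 were −1.69, 12.1 and 8.13 nt, where the median of 1748 genes was −2.52 nt and 5 and 95% of genes lay below −14.2 and 10.2 nt. Cap1 was longer with miR-1 than 95.1% of those genes, relative to GFP, and Ywhaq than 91.5%. With miR-155 the differences were −5.63, −5.40 and −3.17 nt, all inside −12.6 to 11.2 nt. Against the unstimulated culture, Cap1 and Ywhaq with miR-1 differed by only 0.506 and −0.309 nt, but most genes were shorter there (median −11.3 nt), so that 95.2% and 94.4% of genes again lay lower. Cnn3, at 2.75 nt, then lay above 97.3% of genes, against 55.4% with GFP as the reference; GFP itself against the unstimulated culture placed Cnn3 above 97% of genes. The files give a mean per gene without the spread over molecules, so these values have no error. Tails of Twf1 were listed at 110 nt with GFP from 22 tags and at 98.6 nt with miR-1 from 7, too few to compare.

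Other genes of the same families and pathways were counted from fixed lists, in the same RNA-seq comparison of miR-1 with GFP. Of 17 actin-binding relatives, 13 reached 10 RPM; 4 were at or below 75% of GFP and 2 at or above the mirrored limit, where 16.4% and 8.69% of all genes were, as also for each list that follows. The 4, named after their values were seen, were Tagln, Tmsb4x, Gsn and Wdr1. Tagln, which encodes transgelin and marks smooth muscle and fibroblast-like cells, had 44 reads with GFP but 4 with miR-1, and 97 with miR-155, a log2 difference of −4.57 with miR-1 (−6.51 to −3.11) and −1.10 with miR-155; it holds a 7mer-A1, and 5 fibroblast markers summed to 60.3, 55.7 and 40.7 CPM in the same order of GFP, miR-1 and miR-155. The part of such cells in the Tagln values was not tested. Tmsb4x and Wdr1, for thymosin beta 4 and an actin disassembly factor, each hold an 8mer and stood at −0.82 and −0.47 with miR-1 against 0.10 and 0.02 with miR-155. Gsn, for gelsolin, holds no match and was low with both, its 25, 32 and 59 reads with GFP, miR-1 and miR-155 giving −0.76 with miR-1 and a lower value with miR-155. The highest was Tagln3, the neuronal transgelin, at 0.68 (0.30 to 1.07), with no match. Cap2, the paralog of Cap1, stood at 0.51 (0.15 to 0.87) with no 3′ UTR site, unlike Cap1. Cnn2, a paralog of Cnn3 with no match in its transcript and under 10 RPM, had 6 reads with miR-1 against 9 with GFP, a log2 difference of −1.70 (−3.47 to −0.04), and stood at −0.55 with miR-155. Cnn1 had 0 reads with miR-1 against 2 with GFP.

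Among 9 class IIa deacetylases and their partners, 6 reached 10 RPM, of which 0 were at or below 75% and 3 at or above the mirrored limit. Mef2a was lowest at −0.30 (−0.87 to 0.29) and Mef2c highest at 0.66 (0.37 to 0.95). The paralogs of Hdac4 stood at 0.33 for Hdac5 (−0.06 to 0.74) and 0.61 for Hdac9 (0.14 to 1.10), and Hdac7 at −0.11 (−4.38 to 5.77) from 2 reads against 1. Of 9 further pentose phosphate pathway genes, 3 reached 10 RPM and none passed either limit. Transketolase Tkt, with an 8mer, was lowest at −0.38 (−0.62 to −0.14), and Taldo1 highest at 0.04; H6pd, the paralog of G6pdx in the endoplasmic reticulum, stood at 0.15 (−1.46 to 2.01) from 12 reads against 5. Of 6 other 14-3-3 genes, 4 reached 10 RPM, with 0 at or below 75% and 2 at or above the mirrored limit. Ywhab, with an 8mer, was lowest at −0.13 (−0.48 to 0.22) and Ywhah highest at 0.64 (0.28 to 1.02), with Ywhae at 0.37 and Ywhag at 0.46; Ywhaz, of whose windows 96.4% occur elsewhere, stood at −0.53 (−1.66 to 0.66) from 18 reads against 12. Of 14 other genes reported in the literature as miR-1 targets, 6 reached 10 RPM, all 6 with an 8mer or 7mer, and 0 were at or below 75%. Arcn1 was lowest of these at −0.40 (−0.92 to 0.14) and Hspd1 highest at 0.28 (−0.22 to 0.79). Among those of the list under 10 RPM, Lasp1, with a 7mer-A1, stood at −1.31 with miR-1 (−2.25 to −0.39), from 20 reads against 23. It stood at −0.07 with miR-155. Lasp1 was named after its values were seen, and the other genes under 10 RPM with reads had intervals that included 0.

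Levels over all samples showed where these mRNAs are abundant. By RNA-seq per kilobase, Cap1 and Cnn3 were the most abundant in the GFP culture of the 8 targets other than Ywhaq, whose reads could not be placed, at 48.8 and 16.9 RPKM, followed by Twf2 at 9.83, Tagln2 at 5.96, Twf1 at 4.49, G6pdx at 4.37, Pgd at 3.21 and Hdac4 at 2.32. The last 5 rest on 8 to 18 reads each, too few to order neighbours among them. In the embryonic hippocampus the order began with Cnn3 at 177 RPKM and Cap1 at 80.9, then G6pdx at 32.8, Pgd at 31.8 and Tagln2 at 20.2. It ended with Twf1 at 14.5, Twf2 at 14.4 and Hdac4 at 13.5. G6pdx and Pgd, with 820 and 743 reads, could not be ordered. Nor could Twf1, Twf2 and Hdac4, with 242, 240 and 717 reads. Between embryonic and adult hippocampus, both poly(A)-selected and with 7689624 and 7280299 reads, Cnn3 was at 362 and 50.7 CPM. G6pdx was at 107 and 32.6, Pgd at 96.6 and 35.6, Tagln2 at 24.1 and 7.55, and Twf1 at 31.5 and 13.6, all higher in the embryo. Hdac4 (93.2 and 109), Cap1 (241 and 355) and Twf2 (31.2 and 57.3) were higher in the adult. Each tissue is 1 sample, so whether these differences exceed the spread between animals is unknown.

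Cnn3 also ranged widely among stimulated cultures. In unstimulated DIV10 cultures it was at 324 CPM, against 226 with KCl for 10 min and 146 with KCl for 30 min, and TAIL-seq gave 1110, 989 and 756 CPM in the same order. In DIV14 cultures it was at 204 unstimulated, 113 with BDNF and 73.1 with glu/gly, and by tags at 558, 363 and 394. Twf1 was between 33.9 and 41.1 CPM in the DIV10 cultures and Cap1 between 328 and 371. These are single cultures, and they show how far Cnn3 ranged without miR-1.

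**Figure D4:**
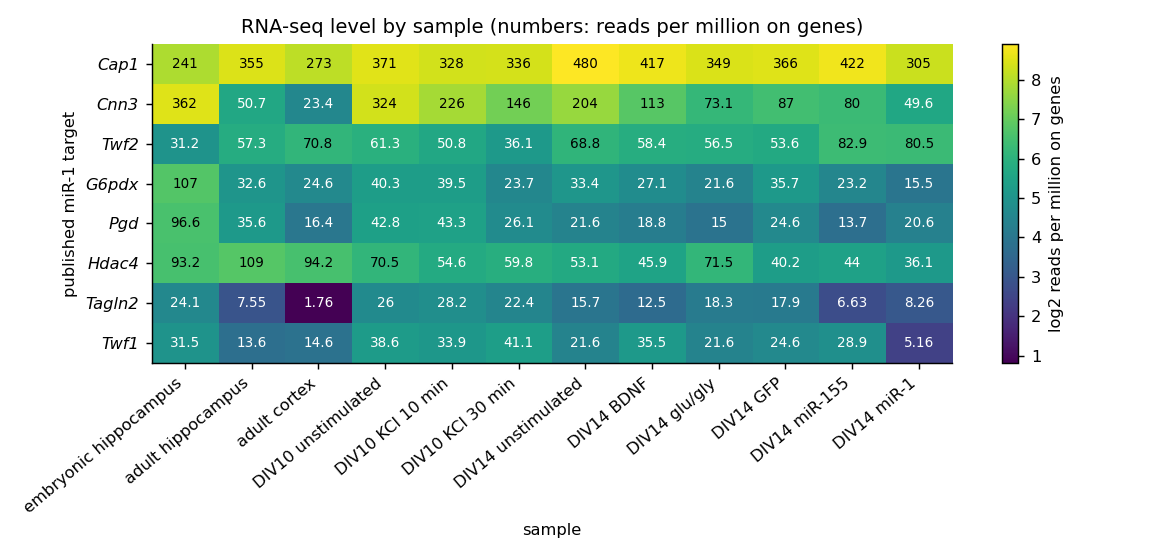
RNA-seq level of 8 targets in 12 samples, in CPM on genes, as numbers and as log2 colour; Ywhaq is left out because its reads could not be placed. The hippocampus samples were poly(A)-selected and the others depleted of ribosomal RNA, and the darkest cell of the Twf1 row is the miR-1 culture (5.16).

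Translational efficiency (TE), the log2 ratio of ribosome footprint RPM to RNA-seq RPM, placed several targets among the well translated mRNAs where it could be measured; the footprint libraries made from the microRNA cultures carry titles that contradict themselves and were not used. In the GFP culture, Cap1 had a log2 TE of 1.99 (1.75 to 2.23) and Cnn3 one of 2.32 (1.84 to 2.84), against a median of 1.26 over 4501 genes, so that 77.9% and 85.2% of genes lay lower. In the adult and the embryonic hippocampus, Cnn3 was at 1.94 and 2.0, above 90.4% and 97% of genes. Twf2 was nearer the median, with between 46.9% (adult hippocampus) and 83.1% (adult cortex) of genes lower over 10 samples. Pgd had the highest TE of the 9 in the GFP culture at 4.2 (3.34 to 5.21) from 382 footprints over 11 RNA-seq reads, but it was below 10 RPM there. In the deeper adult and embryonic hippocampus, where Pgd passed 10 RPM, its TE was 1.63 and 1.78, above 80.7% and 93.5% of genes. Hdac4 was at 1.93 in the adult hippocampus and at 0.19 in the embryonic one (0.05 to 0.32), which are 1.05 above and 0.49 below the medians of those samples. The TE of Hdac4 thus differed between the ages far more than its RNA levels of 109 and 93.2 CPM.

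The visual cortex was the only tissue with replicates, and no target was called after 1 h of light. Light registered in these mice: the immediate early genes Fos and Egr1 rose by 3.91 (SE 0.42) and 3.15 (SE 0.16) on the log2 scale, with adjusted p of 1.42e-06 and 1.02e-11 by edgeR's quasi-likelihood test with Benjamini-Hochberg adjustment. Of 9554 genes tested, 1.21% were called higher and 0.126% lower at an adjusted p under 0.05. Of the 8 targets tested, 0 were called; 0 had an unadjusted p under 0.05 by edgeR, and 0 by DESeq2. Hdac4 had 1 tag in 1 of the 8 mice and was not tested. The tag levels of Cnn3, scaled by TMM, were 168, 111, 118 and 129 CPM in the dark mice and 98.4, 119, 110 and 112 after light. These groups overlapped, with means of 132 ± 25.3 and 110 ± 8.67 (SD, n = 4), and edgeR gave a log2 difference of −0.25 (SE 0.13, adjusted p = 0.555). Without the dark mouse at 168 the difference was −0.11. Ywhaq was at 33.1, 31.7, 31.3 and 14.2 in the dark and 37.7, 32.3, 37.0 and 44.0 after light, a log2 difference of 0.41 (SE 0.21, edgeR adjusted p = 0.557). Without the dark mouse at 14.2 the difference was 0.24. Cap1 was at 169 to 205 in the dark and 149 to 200 after light (−0.06, SE 0.11, edgeR adjusted p = 0.929), and Twf1 at 43.4 to 61.5 and 51.0 to 60.7 (0.13, SE 0.15, edgeR adjusted p = 0.86). The other 4 had log2 differences between −0.34 and 0.36 with adjusted p of 0.674 or more by edgeR.

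Mean tails in the visual cortex were measured with at least 50 tags in each of the 8 mice for Twf1, Twf2, Cnn3 and Cap1. Of 4321 genes tested by limma, 0.231% were called longer and 0% shorter after light, and of these 4 targets 0. Cnn3 tails were 84.3, 80.2, 72.8 and 75.5 nt in the dark and 80, 95.8, 97 and 82.8 nt after light. The groups overlapped, and the difference was 10.7 nt (SE 6.68, limma adjusted p = 0.999). The other differences were 7.94 nt for Cap1, 4.32 nt for Twf1 and −1.13 nt for Twf2, with the same SE, which limma pooled over genes, and the same adjusted p.

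**Figure D5:**
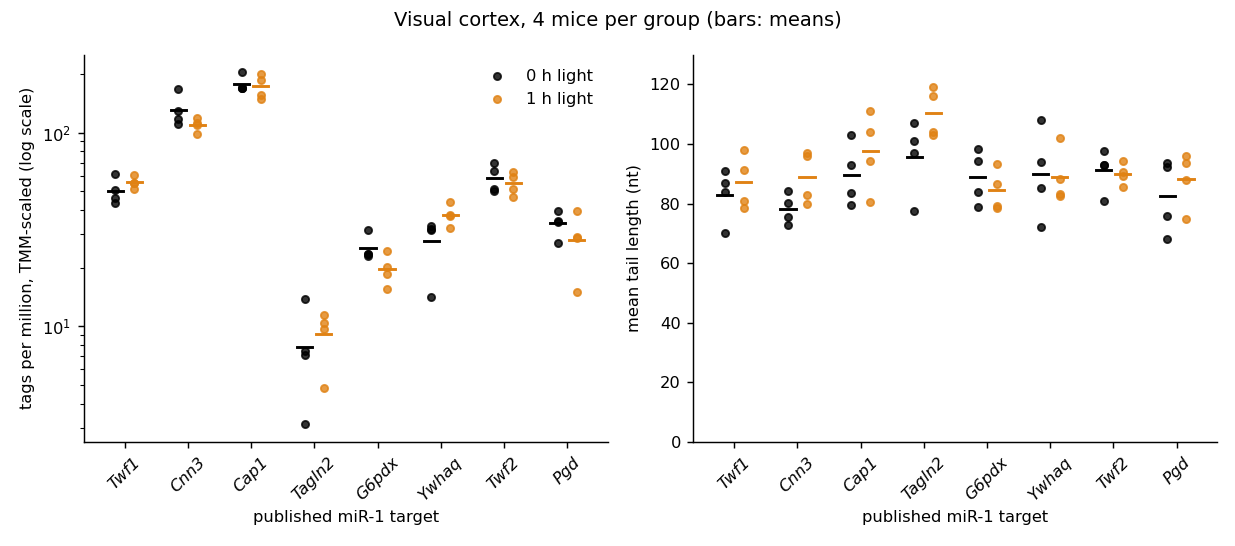
Tags in CPM (left, TMM-scaled, log axis) and mean tail length in nt (right) of 8 targets in the visual cortex of 4 dark mice (black) and 4 mice after 1 h of light (orange). Points are mice and bars group means; the groups overlap for each gene in both panels. Tails of Tagln2, G6pdx, Ywhaq and Pgd rest on under 50 tags in at least 1 mouse and were not tested.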

How the data were processed

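The authors aligned reads to mm10 with STAR and bedtools (STAR 2.4.2 in the submitters' processing notes), using 1 representative transcript per gene. They deposited RNA-seq and footprint read counts over open reading frames without the first 50 nt, with RPM and RPKM values, and TAIL-seq or PAL-seq v2 tag counts in 3′ UTRs with mean and median tail lengths. Listed genes hold 18.3 to 23.4% of the total behind the authors' RPM in the 6 DIV14 cultures. Here counts were divided by reads on listed genes. Rows naming no gene (tail standards and others) were left out; they held up to 0.0881% of RNA-seq reads and up to 19.0% of tags in the virus cultures. The 2 compiled tables of the series and the 2 contradictory footprint files were not used.

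The genes, lists and tests were chosen with earlier results of these data known. Named genes were all 9 targets, the lowest and highest of each list of relatives, and direct paralogs. Tagln, Tmsb4x, Gsn and Wdr1 were named together after their values were seen, as was Lasp1. Fos and Egr1 were named as the check of the stimulus. Symbols, sites and coordinates came from RefSeq on GRCm38.p6, the build of mm10; the miR-1 site letters were derived from miR-206, which shares its seed. Light was tested with edgeR 4.0.16 (TMM, filterByExpr) and limma 3.58.1 on 8 mice, with DESeq2 1.42.0 as an alternative (R 4.3.3); depth was 1233538 to 4812273 tags per mouse. Each test was tried on simulated data first. Alternatives are listed in the closing section.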

Additional observations from a re-analysis of the deposited data

Results flagged for a closer look

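In the visual cortex, 33 groups of 4 mice were checked, each target by tag level and by tail length, and in 4 of them 1 mouse stood apart from the other 3; chance does this in about 1 in 20 groups. Cap1 was at 205 CPM (TMM-scaled tags) in dark mouse 2 against 169 to 170 in the others, and G6pdx at 31.3 in dark mouse 3 against 23.2 to 23.7. Ywhaq was at 14.2 in dark mouse 4 against 31.3 to 33.1. Hdac4 was at 0.602 in light mouse 4, from 1 tag, against 0 in the others. None of these belongs to a called difference.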

How the results depend on the processing

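The median log2 RNA difference of the targets with miR-1 was below 0 under all 10 alternatives run (−1.35 to −0.26). It was taken over only 2 targets, Cnn3 and Cap1, wherever the RPM minimum held, and over 8 without it. Cap1 alone stood at 0.01 on the authors' RPM. The lowest median came with the unstimulated culture as reference, where the median with miR-155 stood at −0.77. The count of targets at or below 75% with miR-1 was 2 of 2 with TAIL-seq tags, with the unstimulated culture or with miR-155 as reference. It was 4 of 8 without the RPM minimum. With no minimum it was also 4 of 8 with GFP and miR-155 summed and 6 of 8 with TAIL-seq tags, both chosen after seeing the data. With miR-155 it was 1 of 2 against the unstimulated culture and 4 of 9 without the minimum. By tags without it, a choice made after seeing the data, the miR-155 count was 2 of 8, Twf1 and Tagln2. The number of targets counted thus differs between settings. Among these settings, the share over all genes was counted only by RNA-seq against GFP without the minimum. That share was 27.7% for the miR-1 culture and 24.5% for the miR-155 culture. Counts in the other settings have no such share beside them. Whether 6 of 8 by tags, or 2 of 2, exceeds the share of all genes is therefore unknown. On the authors' RPM, 3 of 8 targets were lowest with miR-1 (11.3% of all genes). Of the single differences past the limits, 3 changed sign. Against miR-155, Twf2 stood at −0.042 and Tagln2 at 0.32 with miR-1, and by tags G6pdx stood at 0.92 with miR-155. Some smaller differences changed sign too. Pgd with miR-1 stood at −0.25 against GFP and 0.59 against miR-155. Twf1 with miR-155 stood at 0.23 by RNA-seq and −0.44 by tags. The cause of these changes was not tested. Median tail differences, over 2 to 5 targets, kept their sign in all settings run (0.01 to 0.15 log2 with miR-1 and −0.16 to −0.06 with miR-155).

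After light, 0 targets were called for RNA or tails under any alternative, among them DESeq2, the replicate block (0 and 0 calls) and leaving out each mouse (0 to 0 calls); the lowest of 140 adjusted p was 0.373. The dark and light mice share replicate numbers only: the deviations of same-numbered mice correlated at −0.20 to 0.03 over genes, and not every mouse went best with its own number. The replicate block took the RNA calls over all genes from 116 higher and 12 lower to 103 and 10. Over all genes the tail calls went from 10 to 1 with log2 tails or with the replicate block, to 5 longer and 3 shorter with 20 tags, and to between 1 and 21 when a mouse was left out, within 1.5 times only without light mouse 1. Without the filter the RNA calls were 162 higher and 30 lower. Without the dark mouse at 14.2, Ywhaq's difference was 0.24. Depth limits Twf1, Tagln2, G6pdx, Pgd and Hdac4, with under 20 GFP reads each, and 1 culture per virus limits every difference.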
